A study of Mus musculus with 10 samples.

Results

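This section describes 171 solute carrier genes expressed in mouse colon. They were chosen from the 23488 genes of the deposited expression table as symbols made of Slc, a number, letters and a number, with a mean of at least 5 FPKM over the 10 libraries. FPKM is the number of sequenced fragments of a transcript scaled by transcript length and by how many fragments were mapped in that library. Of 362 such symbols, 188 lay under that mean, and Slc26a3, Slc9a3 and Slc7a11 were left out by name. The mean gives weight to 8 libraries of carcinogen-treated mice against 2 of untreated mice, so 15 members averaged under 5 FPKM in untreated colon and 9 under 5 FPKM over the treated libraries. Just inside the threshold lay Slc10a5 at 5.07 FPKM, Slc25a30 at 5.39 FPKM and Slc41a2 at 5.46 FPKM, and just outside it Slc25a40 at 4.96 FPKM, Slc36a4 at 4.50 FPKM and Slc25a34 at 4.44 FPKM. The members belonged to 46 of the numbered Slc families.

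The study profiled colon of C57BL/6 mice by RNA sequencing in 5 groups of 2 libraries each, numbered 0 and 1. Control mice were given saline and kept on the diet AIN-93M. The other groups received azoxymethane (AOM), a colon carcinogen, by subcutaneous injection at 10 mg/kg at 6 weeks of age. A week later they drank 1.2% dextran sulfate sodium (DSS), which injures the colon lining, for 7 days. Model mice stayed on AIN-93M, ASA mice had 0.02% aspirin in that diet, CUR mice had 2% curcumin, and ASA+CUR mice had 0.01% aspirin with 1% curcumin. Each agent was thus given at less in the combination than alone. The labels call the Control samples colonic tissue and the samples of all 4 AOM/DSS groups tumour, whereas the protocol describes tissue left after palpable tumours were taken out. Tissue name and carcinogen treatment cannot be told apart. Whether both libraries of a group are different mice is not in the labels, so p-values measure the spread between libraries, which may be technical.

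Solute carriers are membrane proteins that move small molecules by facilitated diffusion, by exchange, or by coupling to an ion gradient. In the colon, those of the surface epithelium take up short-chain fatty acids, sodium, chloride and vitamins, and those of inner membranes supply the Golgi with nucleotide sugars, vesicles with zinc and mitochondria with nucleotides, phosphate and acyl groups. Many work as pairs on opposite faces of a cell, or with a partner protein that brings them to the membrane. The number in a symbol is the family and the last number the member, and members of a family usually share substrates.

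Expression of the members was uneven. The median member averaged 17.02 FPKM over the libraries, 30 members averaged at least 50 FPKM and 7 at least 100 FPKM. Slc25a5, the adenine nucleotide translocase that exchanges ADP for ATP across the inner mitochondrial membrane, made up 13.1% to 19.2% of the members' summed FPKM. The sum over members was 7664 and 8208 FPKM in the Control libraries and 4732 to 5895 FPKM in the 8 AOM/DSS libraries. The sum over all genes was also higher in the Control libraries, at 720895 and 639954 FPKM, than in 7 of the 8 AOM/DSS libraries, at 515959 to 580450 FPKM, with CUR replicate 0 at 719051 FPKM. The members' share of it was 1.06% and 1.28% in Control and 0.818% to 1.05% in the AOM/DSS libraries. In 129 members every library reached 5 FPKM. Read depth is unknown because FPKM removes it, so no counting interval is given.

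In the Model group, Slc30a2, which loads zinc into vesicles, and the lactate exporter Slc16a3 had the largest rises among the members, and Slc37a2 and the amino acid carrier Slc6a14 the largest falls. Of the 171 members, 12 were higher and 37 lower in Model than in Control at an adjusted p under 0.05 (limma with Benjamini-Hochberg adjustment over the 14061 genes tested). Over all genes tested, 6.84% were called higher and 9.34% lower. Among genes averaging at least 5 FPKM the shares were 7.3% and 8.17%. The level rule bears on these counts, because a member under 5 FPKM on one side entered through the side where it was high. Of the 15 members averaging under 5 FPKM in Control, 5 were called higher, namely Slc11a1, Slc15a3, Slc25a45, Slc30a2 and Slc4a11. Of the 9 averaging under 5 FPKM over the AOM/DSS libraries, 7 were called lower. They were Slc10a5, Slc1a1, Slc24a3, Slc34a2, Slc37a2, Slc41a2 and Slc7a4. Nothing is read from these calls as a count. Of the 147 members at 5 FPKM or more on both sides, 7 were called higher (4.76%) and 30 lower (20.4%), where 4.47% and 8.16% of the 8861 genes at that level were called. The median log2 difference of the members was -0.24, against 0.02 over all genes tested. Differences are on the scale of log2(FPKM + 1), which understates the change of genes with low values, and errors of differences are limma's standard errors (SE). The fit was repeated without Control replicate 0, Control replicate 1, Model replicate 0 or Model replicate 1, and fewer members were then called. Each such fit leaves 1 library in a group, which widens the SE of the difference. A call lost in such a fit, here and below, therefore does not show that the library left out was unusual. Slc10a5 lost its call in all 4 fits while its log2 difference stayed between -1.72 and -1.66. Of the 49 called members, 9 kept the call whichever of these 4 libraries was left out. These were Slc30a2, Slc15a3, Slc16a3 and Slc4a11, which were higher, and Slc4a2, Slc20a1, Slc12a8, Slc24a3 and Slc16a5, which were lower. Slc30a2, Slc15a3 and Slc4a11 averaged under 5 FPKM in Control, and Slc24a3 averaged under 5 FPKM over the AOM/DSS libraries. The calls of Slc37a2 and Slc6a14 were each lost without any 1 of 3 of these 4 libraries, as given with their values.

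**Figure D1:**
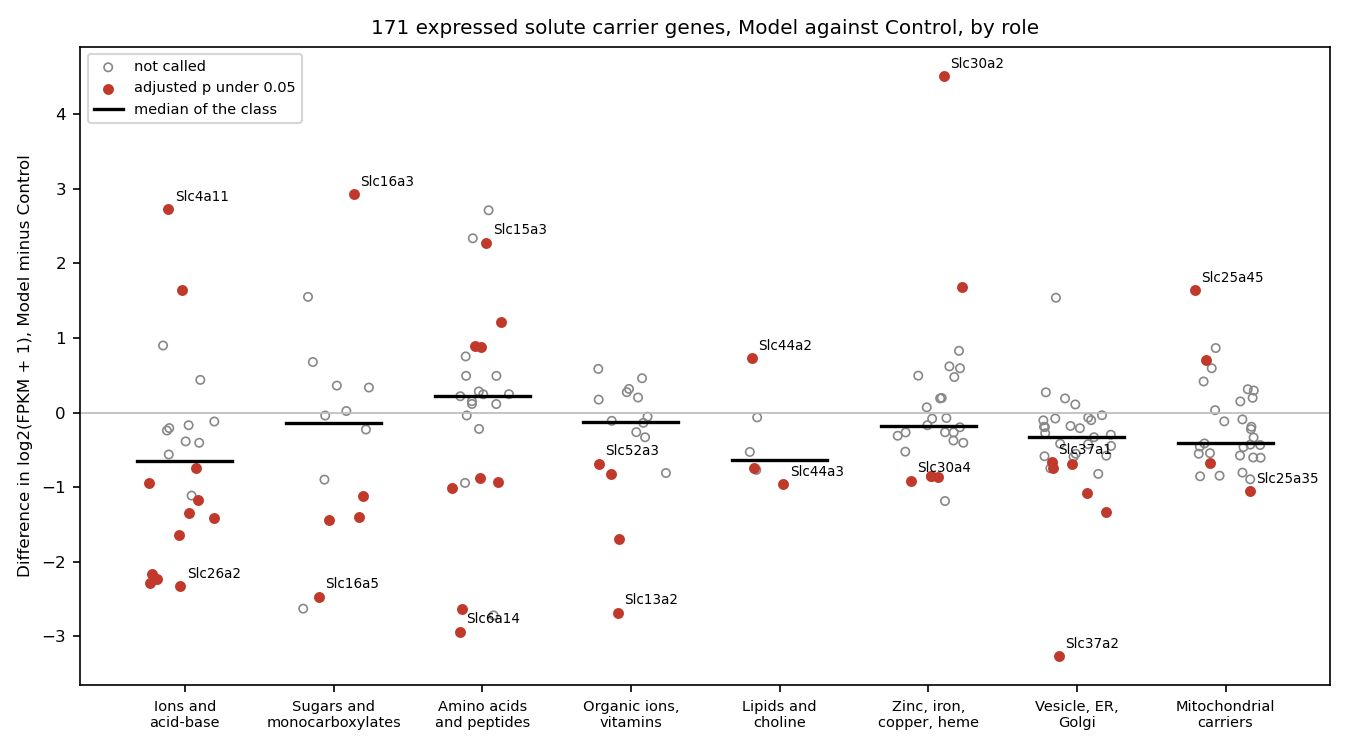
Log2 difference between Model and Control for each of the 171 members (vertical axis, on the log2(FPKM + 1) scale), grouped along the horizontal axis by transported substrate or membrane; each point is a member, filled where the adjusted p was under 0.05, and a line marks the class median. The class of ions and acid-base holds 10 members called lower and 2 called higher, and no member of the vesicle, ER, Golgi and lysosome class was called higher. The ion counts include Slc24a3, Slc34a2, Slc41a2 and Slc4a11, which entered through the side where they were high. Over all genes tested, 9.34% were called lower and 6.84% higher.

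The marker genes of other cell types moved with the groups as well. All 8 smooth muscle markers tested and all 8 enteric neuron and glia markers were lower in Model than in Control, as were 7 of 7 goblet cell markers, 5 of 7 enteroendocrine markers and 3 of 10 absorptive colonocyte markers (Car2, Car4 and Aqp8). Of 6 macrophage and neutrophil markers 4 were higher, and of 7 fibroblast and endothelium markers 5. Of 4 adipocyte markers 3 were lower, of 10 squamous epithelium markers Krt14 was higher, and none of 7 T and B cell, 5 erythroid and 5 distal Hox genes was called. The summed level of the smooth muscle markers was 10037 and 6179 FPKM in Control, 813 and 1052 in Model, 341 and 402 under ASA, 335 and 574 under CUR, and 489 and 388 under ASA+CUR. That of the macrophage and neutrophil markers was 24.7 and 18.7 FPKM in Control, 285 and 206 in Model, 277 and 741 under ASA, 168 and 214 under CUR, and 170.4 and 414 under ASA+CUR. The goblet cell marker Muc2, the macrophage and neutrophil markers Cd68 and Ly6g, and the distal position marker Prac1 were also chosen but had no entry under these symbols. No marker with an entry was at 0 in all libraries. Fewer cells of a type and less RNA per cell cannot be told apart in such bulk tissue, and the part of cell makeup in the results below was not tested.

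The 3 highest and the 3 lowest called log2 differences between Model and Control belonged to 6 members. Start regions are shown so that the values can be read beside the sequence upstream. RefSeq windows on GRCm38.p6, from 250 bases before to 50 bases after the annotated start, were found for 5 of the members. None was found for the sixth, Slc4a11. Capitals mark matches, on either strand, to a core of the metal response element (TGCACNC or TGCGCNC), a core of the hypoxia response element (ACGTG or GCGTG) or the AP-1 element (TGANTCA). The windows of Slc30a2 (chr4:134343216-134343515, plus strand), Slc16a3 (chr11:120948817-120949116, plus strand), Slc37a2 (chr9:37255689-37255988, minus strand), Slc6a14 (chrX:21714650-21714949, plus strand) and Slc13a2 (chr11:78422185-78422484, minus strand) read 5′ to 3′ as follows.
Slc30a2: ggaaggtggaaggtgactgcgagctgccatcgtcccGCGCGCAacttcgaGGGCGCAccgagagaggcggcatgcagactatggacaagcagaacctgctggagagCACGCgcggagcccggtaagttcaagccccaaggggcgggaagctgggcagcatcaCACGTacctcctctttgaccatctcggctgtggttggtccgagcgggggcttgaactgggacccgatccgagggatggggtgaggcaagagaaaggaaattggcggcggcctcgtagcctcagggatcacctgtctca
Slc16a3: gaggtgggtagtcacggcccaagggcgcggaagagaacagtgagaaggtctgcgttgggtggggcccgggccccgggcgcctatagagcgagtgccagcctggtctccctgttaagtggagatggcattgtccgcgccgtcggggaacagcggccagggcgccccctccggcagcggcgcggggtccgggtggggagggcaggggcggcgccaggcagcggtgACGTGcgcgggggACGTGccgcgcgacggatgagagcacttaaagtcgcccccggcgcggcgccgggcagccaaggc
Slc37a2: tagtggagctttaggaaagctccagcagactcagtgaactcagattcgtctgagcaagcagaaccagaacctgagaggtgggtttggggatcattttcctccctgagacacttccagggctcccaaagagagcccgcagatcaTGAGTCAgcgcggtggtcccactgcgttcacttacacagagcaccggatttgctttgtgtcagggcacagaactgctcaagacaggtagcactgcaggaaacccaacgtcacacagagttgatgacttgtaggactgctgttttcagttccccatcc
Slc6a14: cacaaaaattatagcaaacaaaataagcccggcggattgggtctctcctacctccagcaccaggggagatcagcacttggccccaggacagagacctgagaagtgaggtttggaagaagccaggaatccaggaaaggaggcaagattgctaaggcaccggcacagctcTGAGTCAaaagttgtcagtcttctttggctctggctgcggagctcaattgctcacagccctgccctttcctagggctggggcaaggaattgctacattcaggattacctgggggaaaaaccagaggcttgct
Slc13a2: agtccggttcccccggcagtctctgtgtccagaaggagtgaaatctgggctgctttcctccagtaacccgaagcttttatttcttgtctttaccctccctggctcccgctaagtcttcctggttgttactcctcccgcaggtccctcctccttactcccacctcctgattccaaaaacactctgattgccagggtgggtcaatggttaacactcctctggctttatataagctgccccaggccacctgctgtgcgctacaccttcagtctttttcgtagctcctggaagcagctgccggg

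The zinc exporter gene Slc30a2 held 2 matches to the metal response core and 2 to the hypoxia response core, and Slc16a3 held 2 to the hypoxia response core. Slc37a2 and Slc6a14 each held 1 AP-1 match, and Slc13a2 held none of the motifs searched. These short motifs are common. Over all 32851 windows, 25.7% held the metal response core, 43.8% the hypoxia response core and 7.81% the AP-1 element. Over the 176 windows of the 126 members with an entry, the shares were 37.5%, 61.9% and 4.55%. Members' windows also had more GC, with a median of 61.3% against 52.7% over all windows, so the shares are not compared further. The amino acid response element (TGATGNAA) was in 2.84% of members' windows and 3.97% of all, and the TCF/LEF core (CTTTGAT or CTTTGAA) in 9.09% and 8.65%. A match describes letters only.

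Among carriers of zinc, iron, copper and heme, 2 of 26 members were called higher in Model and 4 lower. Over all genes tested the shares were 6.84% and 9.34%. Both members called higher, Slc30a2 and Slc11a1, averaged under 5 FPKM in Control. They entered through the side where they were high, so nothing is read from the count called higher. Slc30a2, which loads zinc into vesicles, had the largest difference of all members. It stood at 0.129 and 0.299 FPKM in Control, 27.9 and 25.5 in Model, 40.2 and 26.6 under ASA, 12.4 and 43.5 under CUR, and 31.6 and 47.1 under ASA+CUR (log2 difference 4.52 ± 0.498, adjusted p = 0.00164). Both Control libraries were near 0 and all 8 AOM/DSS libraries lay above 12 FPKM, with CUR replicate 0 the lowest of them. Slc11a1, which pumps metal ions out of phagosomes in macrophages and neutrophils, was at 2.02 and 1.55 FPKM in Control, 5.495 and 11.2 in Model, 5.69 and 14.2 under ASA, 7.27 and 5.703 under CUR, and 6.35 and 12.9 under ASA+CUR (log2 difference 1.68 ± 0.47, adjusted p = 0.0474). All 8 AOM/DSS libraries lay above both Control libraries, and the AOM/DSS groups overlapped each other. The macrophage and neutrophil markers called in Model, 4 of 6 as given above, were also higher.

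The zinc carriers that fell came from both families, the Slc30 exporters and the Slc39 importers. Slc30a1, the zinc exporter of the cell surface, was at 11.9 and 11.2 FPKM in Control, 5.78 and 6.08 in Model, 5.46 and 5.98 under ASA, 7.85 and 7.76 under CUR, and 6.605 and 6.44 under ASA+CUR (log2 difference -0.86 ± 0.14, adjusted p = 0.00787). Slc30a4, another vesicular zinc carrier, was at 29.2 and 27.95 FPKM in Control and 16.5 and 13.1 in Model (log2 difference -0.91 ± 0.15, adjusted p = 0.00745), Slc39a9 at 41.4 and 48.3 FPKM in Control and 26.6 and 22.3 in Model (log2 difference -0.85 ± 0.15, adjusted p = 0.0105), and Slc39a11 at 79.6 and 73.2 FPKM in Control and 48.7 and 35.01 in Model (log2 difference -0.87 ± 0.19, adjusted p = 0.0203). The main zinc uptake carrier of the gut surface, Slc39a4, was the most abundant of this class, and its libraries overlapped between the groups, at 120.1 and 169.6 FPKM in Control and 134 and 72.7 in Model (log2 difference -0.53 ± 0.32, adjusted p = 0.307). Other iron carriers were not called. Slc11a2, the intestinal importer of ferrous iron, differed by 0.19 ± 0.17 log2 units, Slc40a1, the iron exporter ferroportin, by -0.31 ± 0.36, and Slc39a14, an importer of zinc, manganese and iron, by -0.08 ± 0.21. Each of these differences changed sign under at least 1 other setting. Without single libraries the adjusted p of Slc30a2 stayed at or under 0.0202. Slc30a1 and Slc30a4 lost the call without Control replicate 0 or Control replicate 1 (up to 0.0762 and 0.0642), Slc39a9 without Control replicate 1 or Model replicate 1 (up to 0.0937), Slc39a11 without Control replicate 0, Control replicate 1 or Model replicate 1 (up to 0.124), and Slc11a1 whichever of the 4 was left out (up to 0.223). Of 8 genes of metal storage and uptake outside the Slc symbols, Mt2, a zinc-binding metallothionein, was called higher in Model and none lower.

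Monocarboxylate carriers moved in opposite directions. Slc16a3, which exports lactate, was at 5.57 and 4.49 FPKM in Control, 56.8 and 35.3 in Model, 37.3 and 41.8 under ASA, 39.3 and 27.5 under CUR, and 24.4 and 53.4 under ASA+CUR (log2 difference 2.93 ± 0.37, adjusted p = 0.00287), and the lowest AOM/DSS library was several times the higher Control library. Slc16a1, which carries lactate and butyrate, was at 90.6 and 99.7 FPKM in Control, 47.5 and 24.6 in Model, 38.3 and 28.1 under ASA, 45.8 and 43.8 under CUR, and 35.3 and 22.9 under ASA+CUR (log2 difference -1.45 ± 0.32, adjusted p = 0.0218). Slc16a5, a relative of these carriers, was at 30.8 and 30.9 FPKM in Control, 5.403 and 4.13 in Model, 3.21 and 2.93 under ASA, 15.9 and 7.02 under CUR, and 4.98 and 2.67 under ASA+CUR (log2 difference -2.47 ± 0.36, adjusted p = 0.00462). Every AOM/DSS library lay below both Control libraries for Slc16a1 and Slc16a5, and CUR replicate 0 was the highest of the 8 for Slc16a5. Slc5a8, which takes up butyrate with sodium, had lower values in both Model libraries, at 63.2 and 83.3 FPKM in Control and 16.8 and 6.898 in Model, but missed the threshold (log2 difference -2.63 ± 0.78, adjusted p = 0.0566).

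Among sugar carriers, Slc5a1, the sodium-coupled glucose carrier, was at 43.2 and 52.8 FPKM in Control and 19.8 and 15.3 in Model (log2 difference -1.41 ± 0.39, adjusted p = 0.0453), and Slc50a1, a glucose carrier of the SWEET family, at 128 and 108 FPKM in Control and 50.5 and 57.3 in Model (log2 difference -1.11 ± 0.21, adjusted p = 0.0133). Slc2a1, the common glucose carrier of the cell surface and the most abundant member of this class, overlapped between groups, at 68.3 and 74.6 FPKM in Control and 87.9 and 54.7 in Model (log2 difference -0.04 ± 0.39, adjusted p = 0.96). In all, 1 of 14 members of the class was called higher and 4 lower, beside 6.84% and 9.34% of all genes. Of 10 genes of glucose use, Hk1, a hexokinase, was lower in Model and none was higher. Of 6 carrier subunits and scaffolds, Emb, which escorts monocarboxylate carriers to the membrane, was higher and none lower. The calls of Slc16a3 and Slc16a5 held whichever library was left out, with an adjusted p of at most 0.0297 and 0.0416. The call of Slc16a1 was lost without Control replicate 0, Control replicate 1 or Model replicate 1 (up to 0.133), that of Slc50a1 without Control replicate 0, Control replicate 1 or Model replicate 0 (up to 0.0992), and that of Slc5a1 whichever of the 4 was left out (up to 0.226).

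Amino acid and peptide carriers were the class with the highest median, at 0.22 on the log2 scale. Of the 25 members of the class, 4 were called higher and 5 lower, beside 6.84% and 9.34% of all genes. Among these, Slc15a3 averaged under 5 FPKM in Control, and Slc1a1 and Slc7a4 under 5 FPKM over the AOM/DSS libraries. They entered through the side where they were high. Slc7a5, which takes up leucine and other large neutral amino acids, was at 8.03 and 6.43 FPKM in Control, 21.02 and 15.3 in Model, 16.9 and 21.02 under ASA, 15.7 and 14.2 under CUR, and 21.4 and 23.04 under ASA+CUR (log2 difference 1.21 ± 0.199, adjusted p = 0.00745). Its partner subunit Slc3a2 was higher in both Model libraries but not called, at 35.6 and 36.9 FPKM in Control and 64.8 and 58.7 in Model (log2 difference 0.75 ± 0.296, adjusted p = 0.124). Slc15a3, a lysosomal carrier of histidine and peptides, was at 1.24 and 1.15 FPKM in Control, 8.34 and 11.1 in Model, 11.9 and 14.9 under ASA, 12.6 and 8.91 under CUR, and 8.95 and 13.4 under ASA+CUR (log2 difference 2.28 ± 0.25, adjusted p = 0.00169), and no AOM/DSS library reached down to the Control level. Of its exon bases, 28.1% are shared with the neighbouring gene Tmem132a. Slc6a9, a glycine carrier, was at 8.45 and 7.41 FPKM in Control and 14.4 and 16.4 in Model (log2 difference 0.88 ± 0.15, adjusted p = 0.00953), and Slc1a4, a carrier of alanine, serine and cysteine, at 16.1 and 14.5 FPKM in Control and 31.3 and 27.5 in Model (log2 difference 0.89 ± 0.25, adjusted p = 0.0466).

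Other members of the class fell. Slc1a1, a glutamate carrier, was at 23.3 and 21.7 FPKM in Control, 4.55 and 1.59 in Model, 4.61 and 1.62 under ASA, 1.92 and 5.705 under CUR, and 4.09 and 2.998 under ASA+CUR (log2 difference -2.63 ± 0.52, adjusted p = 0.0149). Slc6a14, which takes up neutral and cationic amino acids, was at 142 and 247 FPKM in Control, 47.7 and 11.3 in Model, 51.3 and 18.8 under ASA, 25.8 and 54.04 under CUR, and 47.9 and 21.6 under ASA+CUR (log2 difference -2.94 ± 0.75, adjusted p = 0.0357). Its Model libraries differed from each other more than 4-fold, and both lay below Control. Slc6a8, the creatine carrier and the most abundant member here, was at 110.4 and 122 FPKM in Control and 70.4 and 45.8 in Model (log2 difference -1.02 ± 0.25, adjusted p = 0.0324). Slc1a5, a glutamine carrier, was at 69.2 and 78.9 FPKM in Control and 41.7 and 37.9 in Model (log2 difference -0.88 ± 0.22, adjusted p = 0.0321), and Slc7a4 at 8.93 and 10.4 FPKM in Control and 4.86 and 4.34 in Model (log2 difference -0.93 ± 0.21, adjusted p = 0.0237). The peptide carrier Slc15a1 missed the threshold with values of 29.7 and 35.2 FPKM in Control and 6.62 and 2.35 in Model (log2 difference -2.72 ± 0.802, adjusted p = 0.0559). Slc7a1, for cationic amino acids, differed by 0.11 ± 0.203 log2 units and Slc38a2, for small neutral amino acids, by 0.25 ± 0.23, and neither was called. Of 12 genes of the amino acid response, which induces several of these carriers when amino acids run short, Ddit4, Phgdh and Shmt2 were higher in Model and none lower.

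Of these amino acid carriers, Slc15a3 kept its call whichever library was left out, with an adjusted p of at most 0.0197. Slc7a5 lost it without Control replicate 1 (0.0692) and Slc6a9 without Control replicate 1 or Model replicate 1 (up to 0.0849). Slc1a1, Slc6a14 and Slc6a8 lost it without Control replicate 0, Control replicate 1 or Model replicate 1, at up to 0.0929, 0.202 and 0.177. Slc1a4, Slc1a5 and Slc7a4 lost it whichever of the 4 libraries was left out, at up to 0.225, 0.188 and 0.161.

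**Figure D2:**
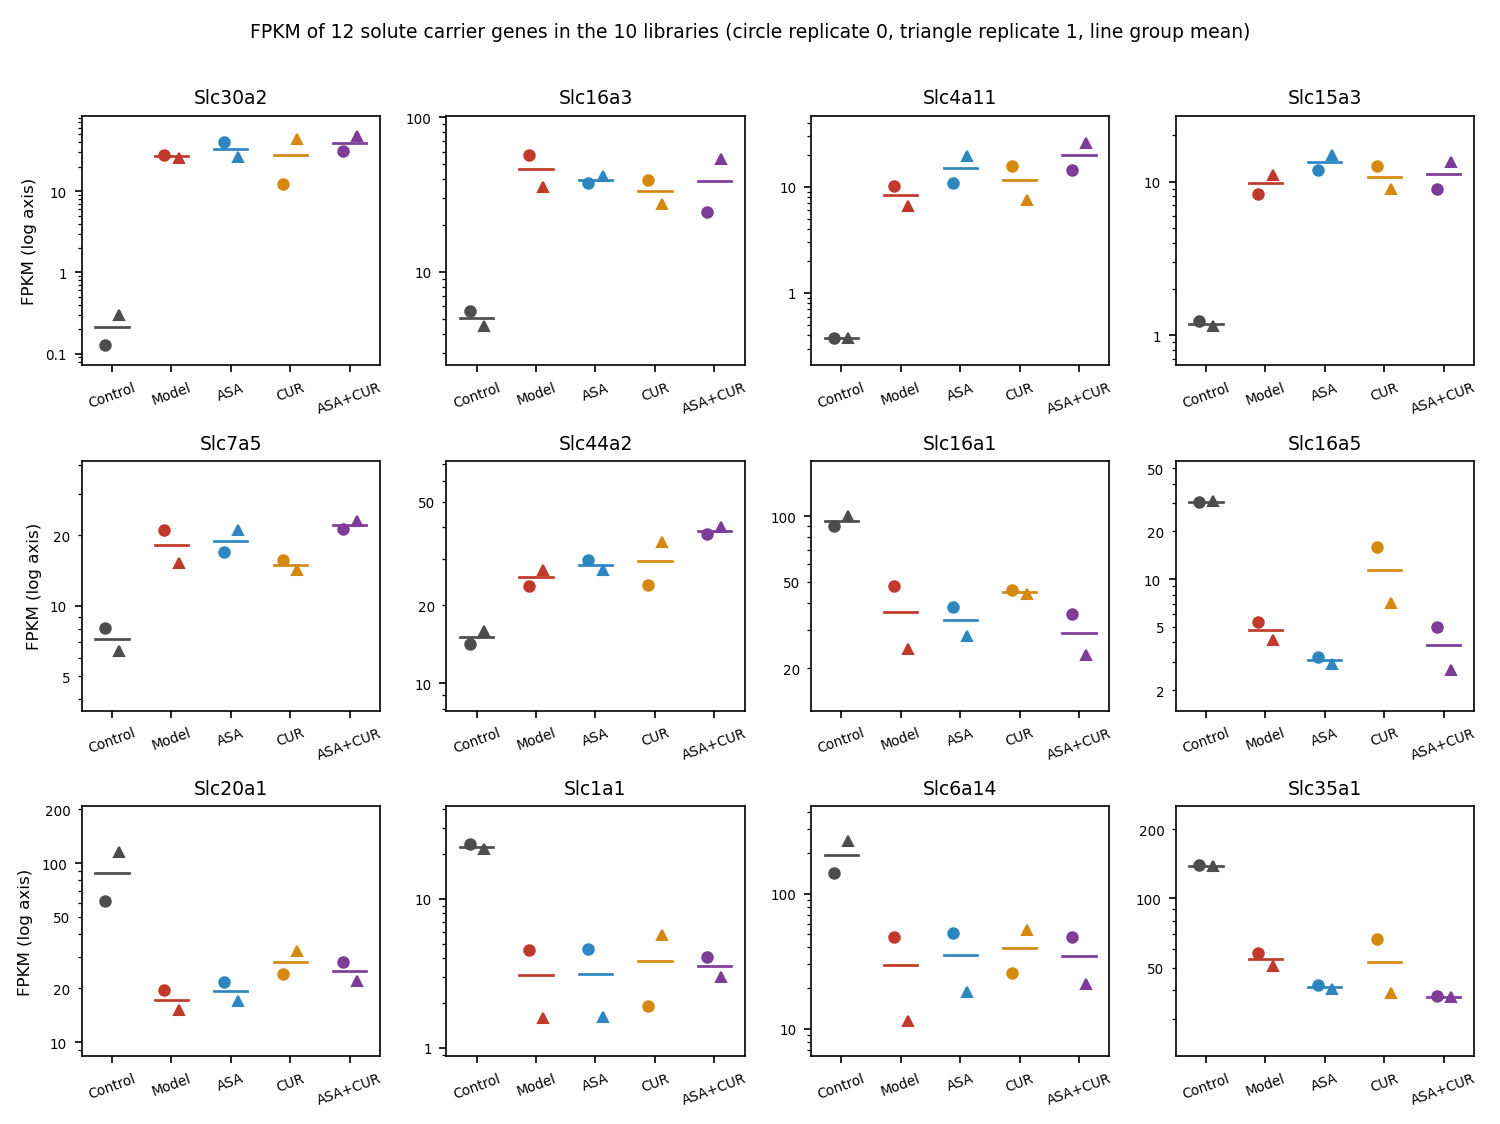
FPKM (vertical axis, log scale) of 12 members in each of the 10 libraries; each point is a library (circle replicate 0, triangle replicate 1) and each line a group mean, with the groups along the horizontal axis. Slc30a2 rises from under 0.3 FPKM in both Control libraries to between 12.4 and 47.1 FPKM in the others, and Slc20a1 and Slc16a5 lie below both Control libraries in all 8 AOM/DSS libraries.

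Of 22 ion and acid-base carriers, 10 were called lower and 2 higher, beside 9.34% and 6.84% of all genes. Among these, Slc24a3, Slc34a2 and Slc41a2 averaged under 5 FPKM over the AOM/DSS libraries and Slc4a11 under 5 FPKM in Control. These 4 entered through the side where they were high. Slc20a1, a sodium-phosphate carrier, was at 61.1 and 116 FPKM in Control, 19.5 and 15.1 in Model, 21.6 and 17.01 under ASA, 23.9 and 32.2 under CUR, and 27.9 and 21.9 under ASA+CUR (log2 difference -2.23 ± 0.31, adjusted p = 0.00392). Slc4a2, which exchanges chloride for bicarbonate, was at 75.2 and 70.7 FPKM in Control, 33.1 and 30.6 in Model, 33.05 and 34.5 under ASA, 38.05 and 31.4 under CUR, and 34.8 and 39.9 under ASA+CUR (log2 difference -1.17 ± 0.14, adjusted p = 0.0025). The 8 AOM/DSS libraries of Slc4a2 lay close together and below both Control libraries. Slc12a8, of the cation-chloride cotransporter family, was at 63.8 and 56.1 FPKM in Control, 22.8 and 20.8 in Model, 9.17 and 12.8 under ASA, 17.7 and 13.4 under CUR, and 7.45 and 6.94 under ASA+CUR (log2 difference -1.42 ± 0.199, adjusted p = 0.00392). Slc24a3, which exchanges sodium for calcium and potassium, was at 19.5 and 17.9 FPKM in Control and 2.92 and 3.902 in Model (log2 difference -2.17 ± 0.32, adjusted p = 0.00459), beside the fall of the smooth muscle markers given above. Slc8b1, the sodium-calcium exchanger of mitochondria, was at 29.8 and 39.2 FPKM in Control and 12.2 and 13.4 in Model (log2 difference -1.35 ± 0.204, adjusted p = 0.00546).

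The sulfate carrier Slc26a2 was at 93.7 and 138 FPKM in Control, 30.4 and 15.5 in Model, 26.9 and 20.7 under ASA, 19.2 and 61.3 under CUR, and 27.3 and 15.9 under ASA+CUR (log2 difference -2.33 ± 0.54, adjusted p = 0.026), with CUR replicate 1 the highest AOM/DSS library. Slc9a2, a sodium-proton exchanger of the surface, was at 79.6 and 91.998 FPKM in Control, 28.97 and 24.8 in Model, 18.5 and 28.7 under ASA, 64.04 and 32.4 under CUR, and 20.6 and 10.3 under ASA+CUR (log2 difference -1.64 ± 0.39, adjusted p = 0.0289), with CUR replicate 0 the highest. A second sodium-phosphate carrier, Slc34a2, was at 9.08 and 29.1 FPKM in Control and 2.36 and 2.79 in Model (log2 difference -2.29 ± 0.53, adjusted p = 0.0254), and its Control libraries differed more than 3-fold. Slc4a7, a sodium-bicarbonate carrier, and Slc41a2, of a magnesium carrier family, were lower by smaller amounts (log2 differences -0.95 ± 0.25 and -0.74 ± 0.19, adjusted p = 0.0416 and 0.0368). The members that rose were Slc4a11, a relative of the bicarbonate carriers, at 0.376 and 0.377 FPKM in Control, 10.1 and 6.52 in Model, 10.8 and 19.3 under ASA, 15.7 and 7.46 under CUR, and 14.3 and 25.8 under ASA+CUR (log2 difference 2.73 ± 0.42, adjusted p = 0.00603), and Slc41a1, a magnesium carrier, at 8.71 and 8.08 FPKM in Control and 25.4 and 31.7 in Model (log2 difference 1.65 ± 0.29, adjusted p = 0.00917). The sodium-potassium-chloride carrier Slc12a2, the most abundant member here, differed by -0.17 ± 0.27 log2 units and the sodium-bicarbonate carrier Slc4a4 by -1.11 ± 0.51, and neither was called.

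Of the ion carriers, Slc4a2, Slc20a1, Slc12a8, Slc24a3 and Slc4a11 kept the call whichever library was left out, with an adjusted p of at most 0.0279, 0.0285, 0.043, 0.0437 and 0.0484. Slc8b1 lost it without Control replicate 1 (0.0532). Slc26a2, Slc4a7 and Slc41a1 lost it without Control replicate 0, Control replicate 1 or Model replicate 1 (up to 0.161, 0.185 and 0.0711). Slc34a2 lost it without Control replicate 1 or Model replicate 0 or 1 (up to 0.139), and Slc9a2 and Slc41a2 whichever of the 4 was left out (up to 0.159 and 0.216). Among 14 genes for the sodium-potassium pump and the channels of the surface, 6 were lower in Model and none higher. Among these were the pump subunit Atp1b1, the sodium channel subunit Scnn1a, the chloride channel Cftr and the water channels Aqp8 and Aqp4.

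Carriers of vesicle, endoplasmic reticulum, Golgi and lysosome membranes were called lower in 6 of 31 members and higher in none. Over all genes tested the shares were 9.34% and 6.84%. Slc37a2, among those called lower, entered through its Control values, as given below. Slc35a1, which brings CMP-sialic acid into the Golgi, was at 139.8 and 138 FPKM in Control, 57.97 and 50.8 in Model, 42.1 and 40.3 under ASA, 66.9 and 38.9 under CUR, and 37.5 and 37.3 under ASA+CUR (log2 difference -1.34 ± 0.23, adjusted p = 0.00837). Slc35a2, the Golgi carrier of UDP-galactose, was at 84.7 and 83.4 FPKM in Control, 47.4 and 32.5 in Model, 47.7 and 31.5 under ASA, 55.5 and 49.9 under CUR, and 39.8 and 38.5 under ASA+CUR (log2 difference -1.08 ± 0.23, adjusted p = 0.0198). Slc35e1, a relative with no assigned substrate, was at 30.7 and 30.6 FPKM in Control and 20.2 and 17.2 in Model (log2 difference -0.69 ± 0.13, adjusted p = 0.0131). Slc35c1, the GDP-fucose carrier and the most abundant member of the class, was lower in both Model libraries but not called, at 134 and 130.4 FPKM in Control and 109 and 89.2 in Model (log2 difference -0.42 ± 0.14, adjusted p = 0.084). Nucleotide sugar carriers feed mucin glycosylation, and the goblet cell markers stood beside them at a summed level of 22728 and 15228 FPKM in Control, 4326 and 3892 in Model, 2309 and 2057 under ASA, 8959.8 and 5584 under CUR, and 2219 and 2329.6 under ASA+CUR.

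Slc37a2, a glucose-6-phosphate exchanger of the endoplasmic reticulum, had the largest fall of all members. It averaged under 5 FPKM over the AOM/DSS libraries, so it entered through its Control values. It was at 19.5 and 52.1 FPKM in Control, 1.68 and 3.37 in Model, 6.09 and 2.94 under ASA, 2.14 and 12.1 under CUR, and 4.81 and 3.07 under ASA+CUR (log2 difference -3.27 ± 0.705, adjusted p = 0.0203), and all 8 AOM/DSS libraries lay below both Control libraries. Its relative Slc37a1 was at 63.4 and 55.8 FPKM in Control and 41.5 and 33.1 in Model (log2 difference -0.67 ± 0.17, adjusted p = 0.0359), and Slc18b1, a vesicular polyamine carrier, at 15.4 and 15.4 FPKM in Control and 9.08 and 8.59 in Model (log2 difference -0.74 ± 0.19, adjusted p = 0.0337). In this class Slc35a1, Slc35a2, Slc35e1 and Slc37a1 lost the call without Control replicate 0, Control replicate 1 or Model replicate 1, with an adjusted p of up to 0.0611, 0.11, 0.0939 and 0.193. Slc37a2 lost it without Control replicate 1 or Model replicate 0 or 1 (up to 0.14), and Slc18b1 whichever of the 4 was left out (up to 0.171).

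Of 31 mitochondrial carriers, 2 were called higher in Model and 2 lower, beside 6.84% and 9.34% of all genes, and their median log2 difference was -0.42. Slc25a45, among those called higher, averaged under 5 FPKM in Control and entered through the side where it was high. Slc25a5 was at 1468 and 1496 FPKM in Control, 1013 and 625 in Model, 926 and 670.4 under ASA, 829.6 and 924 under CUR, and 818 and 784 under ASA+CUR (log2 difference -0.896 ± 0.27, adjusted p = 0.0593). Its relative Slc25a4 was at 175 and 117 FPKM in Control and 105 and 107 in Model (log2 difference -0.43 ± 0.26, adjusted p = 0.306), and Slc25a20, which carries acylcarnitines for fatty acid oxidation, at 85.9 and 96.02 FPKM in Control and 62.8 and 60.4 in Model (log2 difference -0.55 ± 0.29, adjusted p = 0.24). Slc25a45 was at 2.11 and 2.03 FPKM in Control, 5.62 and 12.9 in Model, 5.21 and 7.96 under ASA, 11.4 and 8.31 under CUR, and 5.501 and 5.12 under ASA+CUR (log2 difference 1.64 ± 0.35, adjusted p = 0.0192), and the pyrimidine nucleotide carrier Slc25a33 at 5.44 and 4.699 FPKM in Control and 8.82 and 8.96 in Model (log2 difference 0.71 ± 0.17, adjusted p = 0.0285). The called falls were Slc25a39, needed for glutathione import, at 180.0 and 168 FPKM in Control and 115 and 101 in Model (log2 difference -0.68 ± 0.17, adjusted p = 0.0341), and Slc25a35 at 28.9 and 32.6 FPKM in Control and 15.6 and 12.96 in Model (log2 difference -1.06 ± 0.28, adjusted p = 0.0391). None of these calls held without Control replicate 0, Control replicate 1 or Model replicate 1, with an adjusted p of up to 0.113 for Slc25a45, 0.189 for Slc25a33, 0.173 for Slc25a39 and 0.205 for Slc25a35. The last 3 were also lost without Model replicate 0. Of 5 mitochondrial carriers outside the Slc symbols, Mtch2 and the pyruvate carrier subunit Mpc1 were lower in Model and none higher.

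Among carriers of organic ions, nucleosides, bile acids and vitamins, 4 of 16 members were called lower and none higher. Over all genes tested the shares were 9.34% and 6.84%. Slc10a5, among those called lower, averaged under 5 FPKM over the AOM/DSS libraries and entered through the side where it was high. Slc13a2, which takes up citrate and succinate, was at 99.5 and 76.4 FPKM in Control, 18.98 and 8.37 in Model, 14.6 and 8.29 under ASA, 35.3 and 16.04 under CUR, and 9.46 and 3.81 under ASA+CUR (log2 difference -2.69 ± 0.54, adjusted p = 0.0153), with CUR replicate 0 the highest AOM/DSS library and ASA+CUR replicate 1 the lowest. Slc22a23, an organic ion carrier relative, was at 24.6 and 31.2 FPKM in Control and 16.01 and 14.5 in Model (log2 difference -0.82 ± 0.18, adjusted p = 0.0229), and Slc52a3, a riboflavin carrier, at 22.7 and 24.8 FPKM in Control and 16.2 and 12.8 in Model (log2 difference -0.69 ± 0.19, adjusted p = 0.0445). Slc10a5, of the bile acid carrier family, was at 11.9 and 12.5 FPKM in Control and 3.08 and 3.101 in Model (log2 difference -1.69 ± 0.47, adjusted p = 0.0465). Slc22a18, the most abundant member here, and Slc22a5, the carnitine carrier, were not called (log2 differences -0.81 ± 0.301 and -0.33 ± 0.24). The calls were lost without Control replicate 0, Control replicate 1 or Model replicate 1, with an adjusted p of up to 0.101 for Slc13a2, 0.166 for Slc22a23, 0.229 for Slc52a3 and 0.203 for Slc10a5, and without Model replicate 0 for the last 3. Of 13 genes for organic anion carriers of the SLCO family and ABC exporters, which share such substrates, Abcb1b, Abcc4 and Abca1 were higher in Model and Slco2a1, Abcg2 and Abcc3 lower.

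Of 6 carriers of lipids and choline, 1 was called higher and 2 lower, beside 6.84% and 9.34% of all genes. Slc44a2, a choline carrier relative, was at 14.2 and 15.9 FPKM in Control, 23.8 and 27.3 in Model, 29.9 and 27.4 under ASA, 23.9 and 34.95 under CUR, and 37.6 and 39.8 under ASA+CUR (log2 difference 0.73 ± 0.19, adjusted p = 0.0373). Slc44a3 was at 38.6 and 49.4 FPKM in Control and 24.3 and 19.9 in Model (log2 difference -0.96 ± 0.25, adjusted p = 0.0392), and Slc27a4, a fatty acid carrier, at 27.5 and 27.8 FPKM in Control and 15.98 and 16.1 in Model (log2 difference -0.75 ± 0.199, adjusted p = 0.0396). Slc44a4, which takes up thiamine pyrophosphate in the colon, was the most abundant non-mitochondrial member of all, at 241 and 267 FPKM in Control, 181 and 121 in Model, 140.3 and 168 under ASA, 222 and 165 under CUR, and 115 and 93.4 under ASA+CUR. It was not called in Model (log2 difference -0.77 ± 0.24, adjusted p = 0.0649). All 3 calls were lost whichever of the 4 libraries was left out, with an adjusted p of up to 0.19 for Slc44a2, 0.229 for Slc44a3 and 0.187 for Slc27a4.

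The treated groups were compared with the same Control libraries, so these comparisons and the Model comparison share their controls. In ASA 15 members were higher and 40 lower than in Control, against 9.78% and 12.7% of all genes tested. In CUR 10 were higher and 24 lower, against 6.67% and 8.34%. In ASA+CUR 20 were higher and 55 lower, against 13.1% and 16.4%. The level rule bears on these counts and on the medians that follow, as it does for Model. They were not split by level, so nothing is read from them against the values of all genes. The members' median log2 differences were -0.31, -0.22 and -0.35, and those of all genes 0.02, 0.01 and 0.03. Leaving out single libraries, which leaves 1 library in a group, again moved these counts. For ASA they were 7 higher and 16 lower without Control replicate 0, 6 and 14 without Control replicate 1, and 8 and 18 without ASA replicate 1. For CUR they were 4 and 7 without Control replicate 0, 4 and 5 without Control replicate 1, and 17 and 40 without CUR replicate 1. For ASA+CUR they were 9 and 24 without Control replicate 0, 10 and 17 without Control replicate 1, 13 and 32 without ASA+CUR replicate 0, and 8 and 17 without ASA+CUR replicate 1.

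Some members called in Model also differed from Control in every treated group. Slc30a2 differed from Control by 4.799 ± 0.498 log2 units for ASA, 4.33 ± 0.498 for CUR and 5.03 ± 0.498 for ASA+CUR (adjusted p = 0.000768, 0.00148 and 0.000538). Slc12a8 differed by -2.36 ± 0.199, -1.89 ± 0.199 and -2.89 ± 0.199 (adjusted p = 0.000369, 0.00106 and 0.000187). Slc4a11 differed by 3.495 ± 0.42, 3.11 ± 0.42 and 3.88 ± 0.42, and Slc16a3 by 2.75 ± 0.37, 2.496 ± 0.37 and 2.63 ± 0.37. The glutamate carrier Slc1a1 differed by -2.61 ± 0.52, -2.41 ± 0.52 and -2.38 ± 0.52, and the CMP-sialic acid carrier Slc35a1 by -1.73 ± 0.23, -1.43 ± 0.23 and -1.86 ± 0.23. All of these passed the threshold. Slc37a2 and Slc6a14, with the largest falls in Model, missed it in CUR, with differences from Control of -2.37 ± 0.705 and -2.296 ± 0.75 (adjusted p = 0.0595 and 0.0799).

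Some members called in Model missed the threshold in CUR. The citrate carrier Slc13a2 differed from Control by -1.83 ± 0.54 in CUR (adjusted p = 0.0567), the creatine carrier Slc6a8 by -0.24 ± 0.25 (0.568), the sodium-proton exchanger Slc9a2 by -0.89 ± 0.39 (0.168) and the magnesium carrier Slc41a1 by 0.78 ± 0.29 (0.108). The difference between CUR and Model itself was not past the threshold for any of them, as given below. The SE is the same in every group because the spread is pooled, although the CUR libraries lay farther apart than those of the other groups.

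Other members were called against Control in a treated group and not in Model. The phosphate carrier Slc20a2 was higher in ASA, CUR and ASA+CUR (by 1.07 ± 0.28, 1.26 ± 0.28 and 1.46 ± 0.28 log2 units, adjusted p = 0.0281, 0.0202 and 0.00707), at 9.91 and 11.1 FPKM in Control, 20.5 and 20.4 in Model, 17.1 and 31.2 under ASA, 24.3 and 28.9 under CUR, and 25.9 and 36.2 under ASA+CUR. The zinc carriers Slc39a10 and Slc39a6 were higher in ASA (1.01 ± 0.27 and 0.75 ± 0.18) and in ASA+CUR (0.88 ± 0.27 and 1.09 ± 0.18). In ASA+CUR the choline-family member Slc44a4 (-1.28 ± 0.24, adjusted p = 0.00649) and the butyrate carrier Slc5a8 (-2.87 ± 0.78, 0.0277) were lower. Slc25a5 was lower in ASA and in ASA+CUR (-0.91 ± 0.27 and -0.89 ± 0.27, adjusted p = 0.0454 and 0.041). None of them was called between its group and Model. These members were picked after their values were seen.

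Over all genes tested, 16.4% were called lower and 13.1% higher in ASA+CUR, 12.7% and 9.78% in ASA, and 8.34% and 6.67% in CUR. The class counts below stand beside these unequal shares and were not compared between diets. They include members that entered through the side where they were high and were not split by level. By class, ASA+CUR had 14 of 31 vesicle, ER, Golgi and lysosome carriers called lower and 1 higher, ASA 7 and 0, and CUR 4 and 0. The one that rose was Slc18a1, the vesicular monoamine carrier of enteroendocrine cells, at 2.098 and 2.55 FPKM in Control, 8.38 and 8.92 in Model, 12.2 and 6.51 under ASA, 3.99 and 23.4 under CUR, and 16.9 and 19.7 under ASA+CUR (log2 difference 2.54 ± 0.63 in ASA+CUR, adjusted p = 0.0199). It stood beside enteroendocrine markers at a summed level of 707 and 668 FPKM in Control, 89.6 and 67.1 in Model, 115 and 19.7 under ASA, 63.7 and 164 under CUR, and 231 and 65.02 under ASA+CUR. Of mitochondrial carriers 8 of 31 were lower in ASA+CUR, 6 in ASA and 3 in CUR, with 1, 2 and 2 higher. Of ion carriers 9 of 22 were lower in ASA+CUR, 9 in ASA and 8 in CUR, with 4, 3 and 2 higher. Of amino acid carriers 3 of 25 were lower in ASA+CUR, 4 in ASA and 1 in CUR, with 4, 3 and 3 higher. The pump and channel genes were lower in 7, 6 and 4 of 14 in ASA+CUR, ASA and CUR, with none higher.

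Over all 8 AOM/DSS libraries together, 27 members lay above both Control libraries in every library, 71 lay below both in every library and 73 overlapped. Over all genes tested, 20.1% lay above and 20.3% below. The members include 15 under 5 FPKM in Control and 9 under 5 FPKM over the AOM/DSS libraries, which entered through the other side. These counts were not split by level, so nothing is read from them against the shares of all genes.

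**Figure D3:**
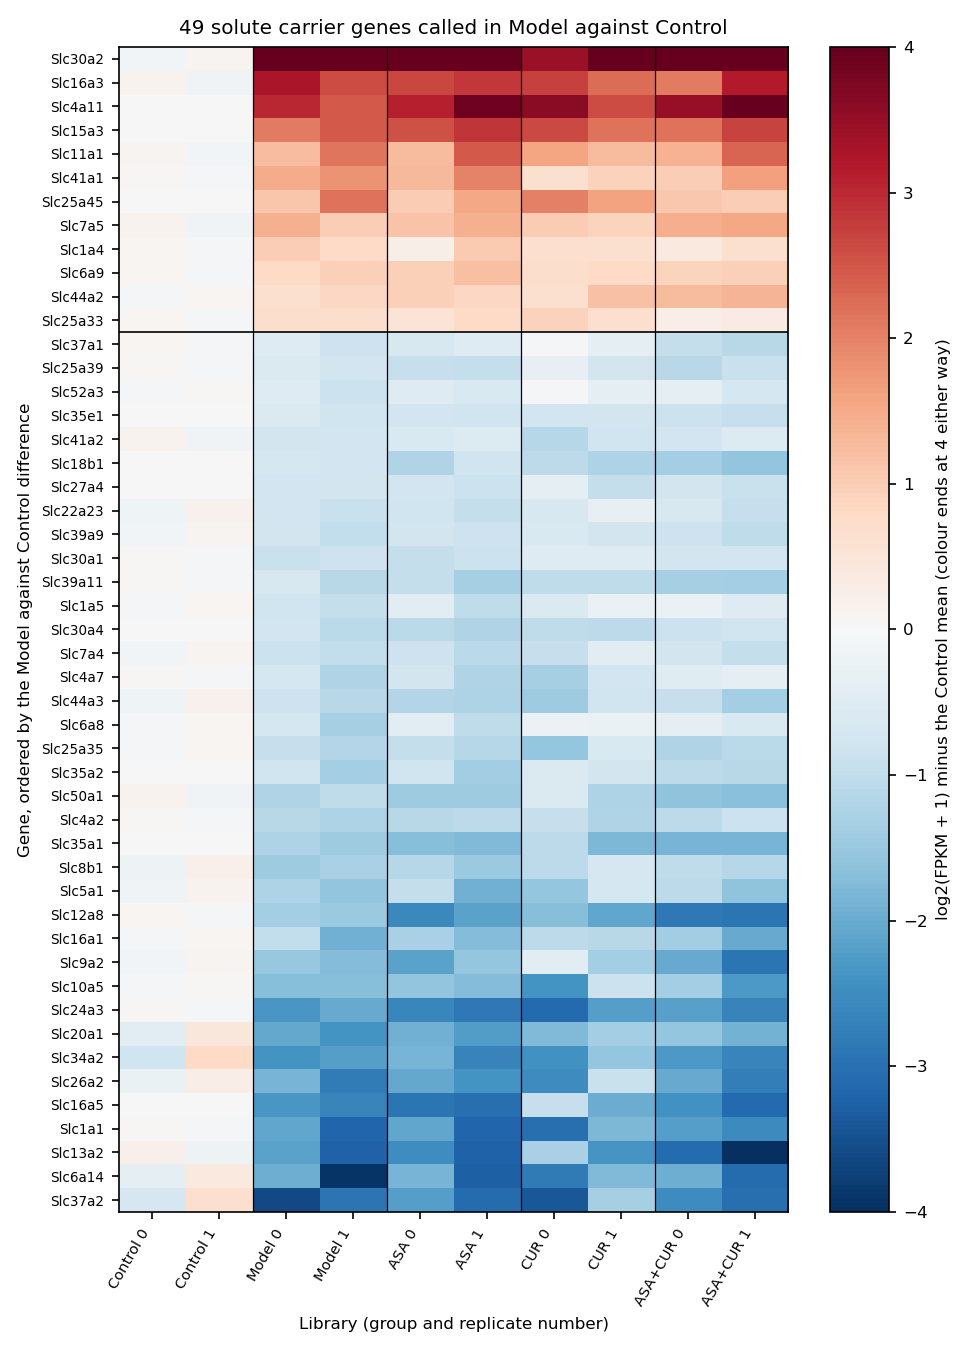
Log2(FPKM + 1) of the 49 members called between Model and Control (rows) in the 10 libraries (columns, in group order), shown by colour as the difference from the Control mean, with colours ending at 4 either way. The 2 Control columns differ from the 8 AOM/DSS columns for most rows. The rows were chosen by the Model call, so the contrast of the Model columns with Control follows from that choice. The other groups are set against the same Control libraries.

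Diet made no detectable difference to any member at the threshold. None of the 171 members was called between ASA and Model, CUR and Model, ASA+CUR and Model, ASA+CUR and ASA, or ASA+CUR and CUR. Over all genes tested, 0.00711% were called higher and 0.00711% lower in ASA than in Model, 0% and 0.00711% in CUR, 0.00711% and 0.00711% in ASA+CUR, and 0% in either direction in both comparisons of the combination with single agents. At an unadjusted p under 0.05, limma gave 1 member higher and 2 lower in ASA than in Model, 6 and 2 in CUR, and 8 and 15 in ASA+CUR. The combination gave 1 and 6 against ASA, and 8 and 17 against CUR. At the same cut, 133 of the 14061 genes tested were higher and 202 lower in ASA than in Model. The numbers were 381 and 303 in CUR, and 645 and 771 in ASA+CUR. For the combination they were 139 and 260 against ASA, and 776 and 1168 against CUR. The members' counts are not read as a result about solute carriers. Without CUR replicate 1, some members passed the threshold in each direction for ASA+CUR against CUR. That comparison holds a single CUR library that is assumed to vary like the other groups. The share of all genes called in that fit is not given, so nothing is read from these calls.

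The member with the smallest p in ASA and in ASA+CUR against Model was Slc12a8, whose values are given above. Its 2 ASA+CUR libraries were the lowest of the 10, and those of ASA were the next lowest. It differed from Model by -0.94 ± 0.199 log2 units in ASA (adjusted p = 0.995), by -0.47 ± 0.199 in CUR (adjusted p = 0.934) and by -1.47 ± 0.199 in ASA+CUR (adjusted p = 0.124). ASA+CUR differed from ASA by -0.53 ± 0.199 (adjusted p = 1.0) and from CUR by -1.001 ± 0.199 (adjusted p = 0.28). In every library of the combination it lay below every library of Model, ASA and CUR.

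Other members with small p values in ASA+CUR against Model included Slc35e4, a relative of the nucleotide sugar carriers (0.87 ± 0.22, adjusted p = 0.359), the polyamine carrier Slc18b1 (-0.72 ± 0.19, 0.367), the zinc carrier Slc39a5 (-1.42 ± 0.42, 0.424) and Slc44a2 (0.58 ± 0.19, 0.445). In ASA against Model they included Slc45a3 (0.58 ± 0.25), the sulfate donor carrier of the Golgi Slc35b2 (-0.35 ± 0.17), Slc4a11 (0.76 ± 0.42) and Slc24a3 (-0.56 ± 0.32), each at an adjusted p of 0.9997. In CUR against Model they were Slc6a8 (0.78 ± 0.25), Slc41a1 (-0.86 ± 0.29), Slc16a5 (1.02 ± 0.36), Slc52a3 (0.48 ± 0.19), Slc37a1 (0.42 ± 0.17) and Slc30a1 (0.35 ± 0.14), each at an adjusted p of 0.934. Slc9a2 differed by 0.75 ± 0.39 and Slc13a2 by 0.86 ± 0.54 there (adjusted p = 0.934 and 0.934).

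Between the combination and single agents, the smallest p values against ASA were those of Slc35e4 (0.73 ± 0.22), the copper carrier family member Slc31a2 (-0.48 ± 0.17), Slc12a8, Slc37a1 (-0.46 ± 0.17), Slc18b1 (-0.46 ± 0.19) and Slc39a4 (-0.76 ± 0.32), each with an adjusted p of 1.0. Against CUR they were Slc12a8, Slc37a1 (-0.79 ± 0.17), Slc9a2 (-1.58 ± 0.39), Slc25a20 (-1.08 ± 0.29), Slc44a4 (-0.88 ± 0.24) and Slc16a5 (-1.31 ± 0.36), with adjusted p from 0.28 to 0.303. Doses differ between the combination and the single agents, so these values compare diets and not agents.

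The spread between the libraries of a group differed from group to group and was widest in CUR. The number of members whose replicates differed by more than 1 log2 unit was 3 for Control, 8 for Model, 10 for ASA, 30 for CUR and 6 for ASA+CUR. As shares of the members these are 1.75% for Control, 4.68% for Model, 5.85% for ASA, 17.5% for CUR and 3.51% for ASA+CUR. Over all genes tested the shares were 1.07%, 6.24%, 6.32%, 9.6% and 2.77% in the same order. Over members, the Pearson correlation of log2(FPKM + 1) between the 2 libraries of a group was 0.982 for Control, 0.941 for Model, 0.928 for ASA, 0.845 for CUR and 0.95 for ASA+CUR, across 171 genes that are not independent. Among the AOM/DSS libraries, only ASA+CUR replicate 1 was nearest to its own replicate. Both Model libraries were nearest to ASA replicate 1 (0.953 and 0.972), and ASA replicate 1 to Model replicate 1. ASA replicate 0 and ASA+CUR replicate 0 were nearest to each other (0.984). CUR replicate 0 was nearest to Model replicate 0 (0.93) and CUR replicate 1 to ASA+CUR replicate 0 (0.964). CUR replicate 0 was the lowest of the 10 libraries in 39 members and the highest in 18, and ASA+CUR replicate 1 the lowest in 32 and the highest in 20.

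The amino acid carrier Slc38a4 had the widest gap, with 32.1 and 1.93 FPKM in CUR and 17.97 and 2.88 in Model. Slc18a1 had 3.99 and 23.4 FPKM in CUR, and the large neutral amino acid carrier Slc7a8 had 10.3 and 48.7 in ASA and 9.34 and 33.99 in ASA+CUR. Slc37a2 had 2.14 and 12.1 FPKM in CUR and Slc15a1 5.88 and 27.6. The butyrate carrier Slc5a8 had 24.98 and 6.502 FPKM in ASA and 17.5 and 4.51 in ASA+CUR. The folate carrier Slc46a1 had 8.77 and 32.3 FPKM in CUR.

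Hox genes of the distal end, which mark position along the colon, were summed in each library. Their level was 210.1 and 292 FPKM in Control, 117 and 42.3 in Model, 305 and 29.01 under ASA, 30.4 and 397 under CUR, and 308 and 292 under ASA+CUR. It was lowest in ASA replicate 1, CUR replicate 0 and Model replicate 1, and highest in CUR replicate 1. Squamous epithelium markers, which are found at the anal end, were summed at 7.18 and 7.17 FPKM in Control, 192 and 26.6 in Model, 426 and 124 under ASA, 202 and 89.5 under CUR, and 899.7 and 262 under ASA+CUR. The part of position in the spread of the members was not tested.

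**Figure D4:**
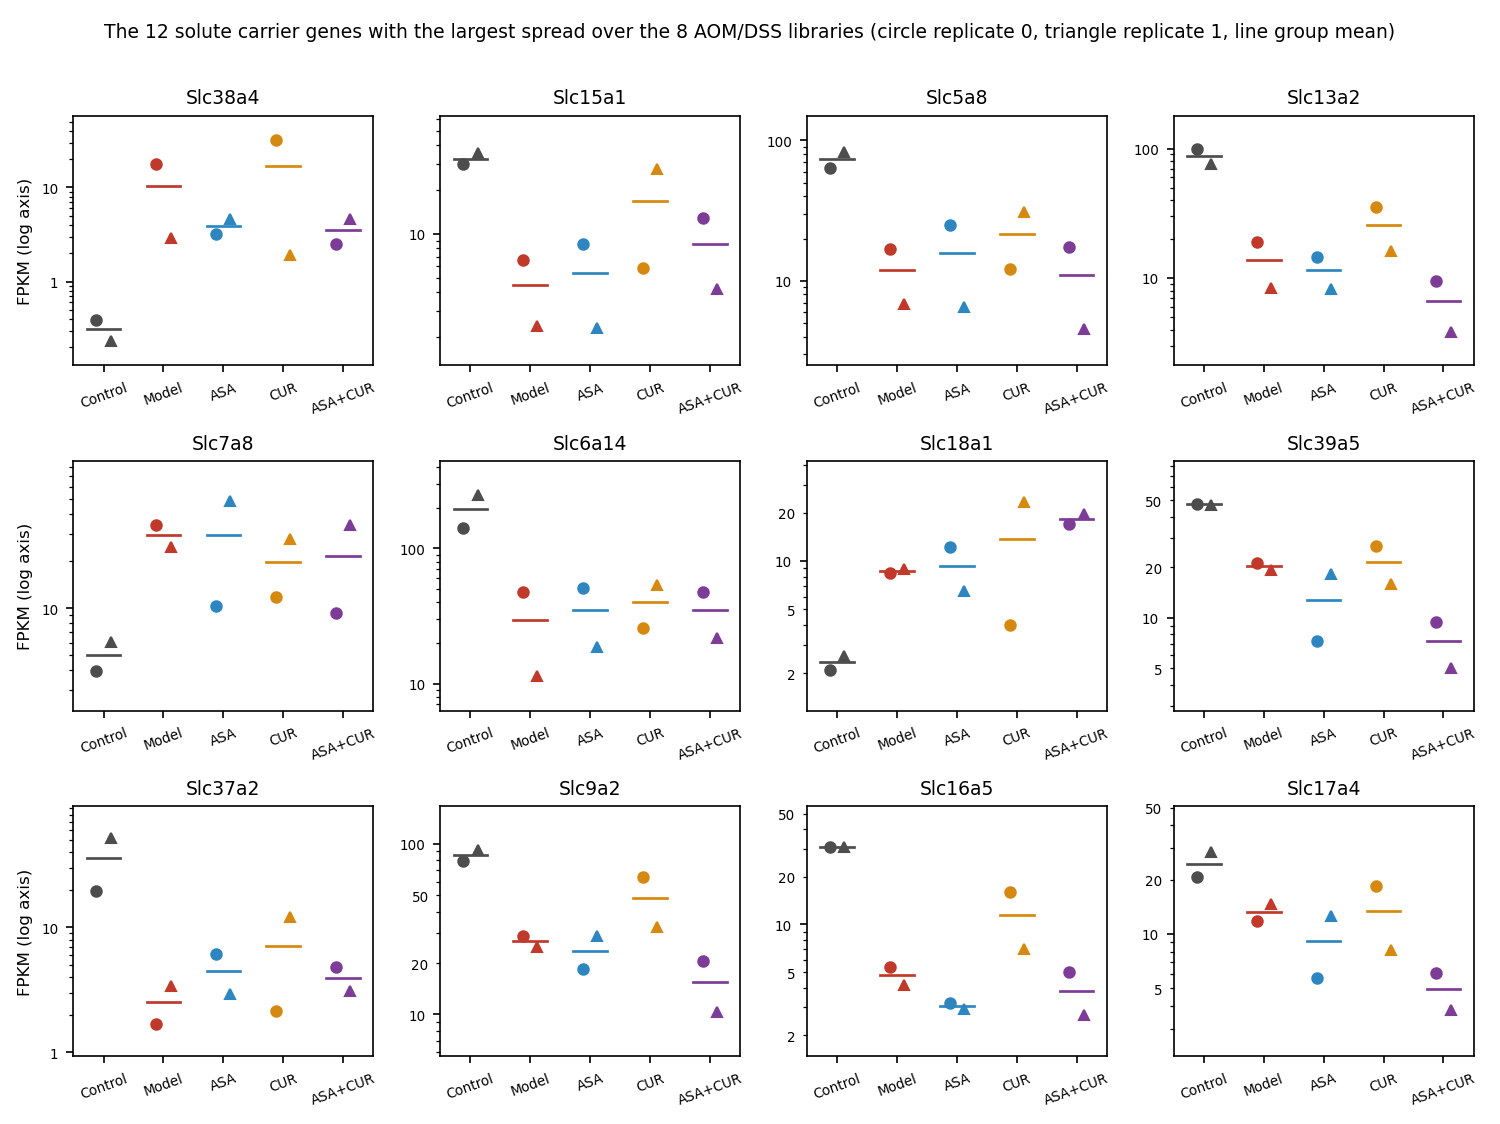
FPKM (vertical axis, log scale) in all 10 libraries, by group along the horizontal axis, of the 12 members with the largest spread over the AOM/DSS libraries; each point is a library and each line a group mean. Slc38a4 spans 1.93 to 32.1 FPKM and Slc15a1 2.2997 to 27.6 FPKM, with both extremes of Slc38a4 in the CUR group.

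At the other end, some members barely varied over the 8 AOM/DSS libraries. The lowest, the median and the highest were 22.2, 23.1 and 25.1 FPKM for Slc25a51, a mitochondrial NAD carrier, and 20.9, 22.05 and 23.5 FPKM for Slc30a9. Slc35c1 had 87.1, 98.9 and 109 FPKM and Slc39a1, a zinc importer, 81.1, 89.98 and 107 FPKM.

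Some families by number show how the calls in Model against Control were distributed, beside 6.84% of all genes called higher and 9.34% lower. Of 31 Slc25 members, 2 were higher and 2 lower in Model than in Control. Of 19 Slc35 members 3 were lower, and of 12 Slc39 zinc importers 2 were lower. Slc30 held 1 higher and 2 lower of 7, Slc16 1 and 2 of 6, Slc7 1 and 1 of 6, Slc4 and Slc6 each 1 and 2 of 4, and Slc1 1 and 2 of 3. Of 5 Slc38 and 3 Slc17 members none was called. These calls include Slc30a2, Slc4a11 and Slc25a45, under 5 FPKM in Control, and Slc7a4 and Slc1a1, under 5 FPKM over the AOM/DSS libraries. Such members entered through the side where they were high, so nothing is read from the family counts.

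How reads were divided among transcripts and overlapping genes limits some values. In 125 members the table holds 1 transcript and in 46 several, and in 24 members at least 2 transcripts each made up 20% or more of the sum. For the chloride-bicarbonate exchanger Slc4a2, the leading transcript made up 72.0% of the mean sum for Control, 58.3% for Model, 54.5% for ASA, 75.4% for CUR and 51.1% for ASA+CUR. Cuffdiff estimates such shares by a model, and no test was run on them. By the GENCODE M21 annotation, over 20% of exon bases were shared with another gene in 9 of the 168 members with exons found. Among them were Slc39a7 (80.7%), Slc33a1, Slc1a1 (31.9%, on the opposite strand), Slc25a35 (31.3%), Slc6a9 (30.2%), Slc15a3, Slc13a2 (26.2%, an antisense gene) and Slc16a6. Strand use in the counting is not given in the sources, so the values of these genes may hold reads of the neighbour. Slc25a5 and Slc39a1 each have 1 named pseudogene, with which reads may be shared.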

How the data were processed

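RNA of 10 colon libraries was prepared with the TruSeq RNA version 2 kit and sequenced on a NextSeq 500, per the labels' protocols. The deposited table holds FPKM per RefSeq transcript as the authors made it. Per the submitters' processing notes, the builds were mm10 and GRCm38 and the tools were Cuffdiff (no version given), Bowtie2 2.1.0.0, TopHat2 2.0.9 and bcl2fastq 2.17.1.14, with no roles stated. FPKM is a model estimate, and duplicate, multi-mapping and strand settings are not given in the sources used here. Of 30073 transcripts, 29443 were named by RefSeq GRCm38.p6 and 179 by GENCODE M21, and 451 kept their identifiers. FPKM was summed per gene.

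Tests used limma 3.58.1 under R 4.3.3 on log2(FPKM + 1) for genes reaching 1 FPKM in 2 or more libraries, with the intensity trend, all 10 libraries in 1 fit (5 residual and 2.96 prior degrees of freedom), and Benjamini-Hochberg adjustment over all genes tested, two-sided, threshold 0.05. The steps were tested on simulated data. All 171 members passed the filter. The members, substrate classes and lists were chosen with earlier results of these data known. Named genes are, per class and comparison with Control, up to 3 called members in each direction by smallest p and the most abundant member, among AOM/DSS groups the 6 smallest p, plus a fixed list of well-known carriers. Other called members, the widest gaps and the steadiest members were named after their values were seen. Of the fixed list, Slc26a6, Slc10a2, Slc51a, Slc51b, Slc30a10 and Slc27a2 are not members. Slc51a and Slc51b have no trailing number and so do not match the symbol pattern. A few genes that these rules select are not reported here.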

Additional observations from a re-analysis of the deposited data

How the results depend on the processing

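The alternatives were 2 other pseudocounts, 2 other filters on low values, 2 scalings, limma without the trend, the highest transcript in place of the sum, only the 2 groups compared, 2 other membership thresholds, the replicate number as a block, and leaving out each library. With only the 2 groups compared, the members higher in Model than in Control were 19, those lower in CUR 9 and those higher in ASA+CUR 33. With members averaging at least 20 FPKM, which leaves fewer genes, the counts higher and lower were 5 and 20 in Model, 6 and 23 in ASA, 4 and 9 in CUR, and 7 and 30 in ASA+CUR. Over the fits without 1 library they ranged from 4 to 8 and 5 to 23 in Model, 6 to 16 and 14 to 31 in ASA, 4 to 17 and 5 to 40 in CUR, and 8 to 13 and 17 to 32 in ASA+CUR, all against Control. They ranged from 0 to 10 and 0 to 22 in ASA+CUR against CUR, and stayed at 0 in the other comparisons among AOM/DSS groups under every alternative run. The other alternatives kept each count within 1.5 times its value. The shares of all genes called under the alternatives are not given, so the members' counts are not set against them. With the replicate number as a block, 13 members were higher and 30 lower in Model, 16 and 38 in ASA, 10 and 21 in CUR, and 19 and 53 in ASA+CUR. Deviations of same-numbered libraries correlated at -0.21 to 0.33 over pairs of groups. With 2 libraries per group these values cannot tell whether same-numbered libraries share a batch or a pairing. Some differences changed sign, and the cause was not tested. In Model against Control, Slc2a1 became 0.017 with upper quartile scaling and ranged from -0.38 to 0.30 without 1 library. Slc7a1 ranged from -0.14 to 0.37, Slc40a1 from -0.78 to 0.16 and Slc39a14 from -0.19 to 0.022. With the highest transcript, Slc11a2 became -0.26, Slc39a14 0.072 and, in ASA+CUR against Control, Slc29a1 0.013 from a called -0.54. Of 263 results for single genes, fits without 1 library left 558 values on the same side of the threshold and moved 481 under it, 8 over it and 5 to the other sign. Over the other alternatives these numbers were 2469, 148, 9 and 4.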
